A study of Mus musculus with 20 samples.

Results

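The genes described here are 10 sensors, transcription factors, and targets of the unfolded protein response (UPR): Ern1, Ern2, Atf6, Xbp1, Atf4, Ddit3, Creb3l1, Herpud1, Pdia4, and Sdf2l1. They were picked by name, through the mouse GENCODE symbols of the Ensembl identifiers, from the 19887 genes of a table of read counts for the cecum. RNASeq was performed on whole cecum tissue from 20 C57BL/6 mice, 5 for each of 4 diets. All mice ate the Total Western Diet (TWD), a rodent diet modelled on the typical American diet, for 6 weeks from weaning, at 3 to 4 weeks of age, and then the same diet with 0, 2, 5, or 10% raw potato starch (RPS), a type 2 resistant starch, for another 3 weeks. The comparisons ask whether any dose of RPS changed these genes against mice fed TWD without RPS, and whether they followed the dose.

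Proteins that enter the endoplasmic reticulum (ER) are folded there, and unfolded protein that builds up is sensed by 3 membrane proteins: IRE1, PERK, and ATF6. IRE1 cuts the Xbp1 mRNA so that it encodes an active transcription factor, PERK slows translation and raises that of ATF4, and ATF6 is cut in the Golgi to release its own transcription factor. Their targets include chaperones, disulfide isomerases, and proteins that draw misfolded proteins out of the ER for degradation. Secretory cells of the gut, such as goblet cells that make mucin and plasma cells that make antibody, rely on this pathway.

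Only transcript levels were measured, and for Xbp1 this leaves out the step by which IRE1 acts. The stretch of Xbp1 that IRE1 removes is annotated on GRCm39 at chr11:5474278-5474303 on the plus strand, in an exon of the gene and within the coding sequence of 13 annotated transcripts. It is shown because its 26 bases leave a remainder of 2 when divided by 3, so that its removal shifts the reading frame. It is printed in capitals with the bases on either side, 5′ to 3′, with its ends as annotated. A G stands at its first base and just after its last, so ends a base further on would leave the same spliced sequence.

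Xbp1: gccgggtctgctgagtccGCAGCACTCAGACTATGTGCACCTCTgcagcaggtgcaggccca

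Of 24 annotated Xbp1 transcripts, 19 hold this stretch in an exon and 1 has it as an intron. A count per gene adds all of them up, so spliced and unspliced Xbp1 could not be told apart, and values below are for total Xbp1.

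The promoters of Herpud1 and Ddit3 are shown because these were the members with the smallest p in the 10% RPS comparison and because their levels moved together over mice. Each window runs from 250 bases before the start of the main transcript to 50 bases after it, on the plus strand of GRCm39, at chr8:95112787-95113086 for Herpud1 and chr10:127126310-127126609 for Ddit3. Capitals mark motifs found by a search of both strands.

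Herpud1: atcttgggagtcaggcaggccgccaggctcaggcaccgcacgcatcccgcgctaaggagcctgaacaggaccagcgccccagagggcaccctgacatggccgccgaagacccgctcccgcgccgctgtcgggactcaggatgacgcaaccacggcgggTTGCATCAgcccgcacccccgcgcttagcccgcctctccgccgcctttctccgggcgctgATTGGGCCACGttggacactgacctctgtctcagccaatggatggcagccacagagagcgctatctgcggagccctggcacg
Ddit3: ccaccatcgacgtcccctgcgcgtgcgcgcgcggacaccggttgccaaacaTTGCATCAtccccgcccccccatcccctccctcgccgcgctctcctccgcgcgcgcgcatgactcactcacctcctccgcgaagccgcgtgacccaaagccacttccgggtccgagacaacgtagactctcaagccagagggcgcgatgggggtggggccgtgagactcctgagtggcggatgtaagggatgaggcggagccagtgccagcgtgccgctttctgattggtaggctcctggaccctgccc

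The Herpud1 window held ERSE-II (ATTGGNCCACG), an element bound by UPR transcription factors, at positions −32 to −22 from the start. It was the only member to do so, and 14 of 15336 windows of tested genes held it (0.0913%). The C/EBP-ATF element (TGATGNAA), the kind of site through which ATF4 acts, lay on the other strand of Herpud1 at −92 to −85 and of Ddit3 at −199 to −192, and was found in 2.45% of windows. No member window held ERSE (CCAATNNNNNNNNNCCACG), found in 0.111% of windows, or the core TGACGTG of the UPR element, found in 2.39%. No motif overlapped another in these windows. These are matches of letters in a window of 300 bases, and nothing was measured of binding.

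All 10 genes were detected in each mouse and all 10 were among the 15348 genes tested. Total counts ranged from 14967798 to 42687283 per mouse, and the lowest count of a member was 208, for Ddit3. Levels are given as CPM, counts scaled to a common library total after TMM normalization. In mice fed 0% RPS, levels per kilobase of the main transcript were highest for Atf4 at 93.1 ± 14.3 CPM per kb (SD, n = 5) and Xbp1 at 80.1 ± 17.5, whose mice overlapped. Herpud1 at 45.3 ± 6.36 and then Pdia4 at 26.2 ± 3.40 each lay below the gene before with no overlap of mice. Sdf2l1 at 21.4 ± 5.13 overlapped Pdia4, Creb3l1 at 15.8 ± 4.76 overlapped Sdf2l1, and Ddit3 at 15.8 ± 1.86 overlapped Creb3l1. Ern2 at 10.4 ± 1.07 lay below Ddit3 without overlap, and Atf6 at 6.28 ± 0.69 lay below Ern2 without overlap. Ern1 was lowest at 6.05 ± 0.53 CPM per kb and overlapped Atf6. The order depends on the length used. Per kilobase of all annotated exons of a gene, Atf4 was still highest at 68.3 CPM per kb, but Xbp1 was at 22.8, below Herpud1 at 36.5, and Ddit3 was lowest at 2.78, below Ern1 at 4.20 and Atf6 at 4.83.

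The libraries of 3 mice stood apart from the rest: 0% RPS mouse 5, 2% RPS mouse 3, and 5% RPS mouse 4. Their mitochondrial genes took 13.02 to 15.39% of counts, against 8.998 to 11.48% in the other 17 mice, and they lay at 30.9 to 55.2 on the second principal component, against −19.3 to 4.55. No mouse fed 10% RPS was among them. These libraries bear on Creb3l1 more than on the other members, and the tests of the members against 0% RPS and for the trend were also run without them.

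No UPR gene passed the threshold at any dose of RPS. A gene was called changed at an adjusted p up to 0.05 and a fold change of at least 1.5, by edgeR's quasi-likelihood test with Benjamini-Hochberg adjustment over all genes tested. At 10% RPS against 0%, 0 of 10 members were called, against 1.04% of all genes, and 3 of 10 had an unadjusted p under 0.05, against 19.5% of all genes. Those 3 were Herpud1, Ddit3, and Atf4, and all had estimates below 0. Their number depended on single mice: it was 1 without 0% RPS mouse 1, 10% RPS mouse 1, or 10% RPS mouse 3, and 4 without 10% RPS mouse 5. At 5% RPS, 0 of 10 were called, against 0.195% of all genes, and 0 had an unadjusted p under 0.05, against 13.3%. At 2% RPS, 0 of 10 were called, as were 0% of all genes, and 0 had an unadjusted p under 0.05, against 5.77%. With 1 mouse left out that count was 1 at 5% RPS without 0% RPS mouse 5 or 5% RPS mouse 4, and 1 at 2% RPS without 0% RPS mouse 4 or 2% RPS mouse 5. For a linear trend over the dose, 0 of 10 reached an adjusted p of 0.05, against 1.11% of all genes, and the same 3 genes had an unadjusted p under 0.05, against 18.8%. That count was 0 without 10% RPS mouse 1 or 2, and 1 without 0% RPS mouse 1 or 5, 2% RPS mouse 2 or 5, 5% RPS mouse 3, or 10% RPS mouse 3. It was 4 without 5% RPS mouse 4, and ran from 0 to 4 over the alternatives that did not leave out single mice. In a test for any difference among the 4 diets, 0 of 10 passed, against 0.0912% of all genes, and 0 had an unadjusted p under 0.05, against 11.1%, a count that was 1 without 0% RPS mouse 4 or 10% RPS mouse 4 and 2 with a surrogate variable. DESeq2 also called 0 members in each of these 5 comparisons, as did edgeR without the 3 libraries that stood apart. No member had groups that did not overlap in any comparison with 0% RPS, against 4.88% of all genes at 10% RPS, 3.57% at 5%, and 1.09% at 2%.

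**Figure D1:**
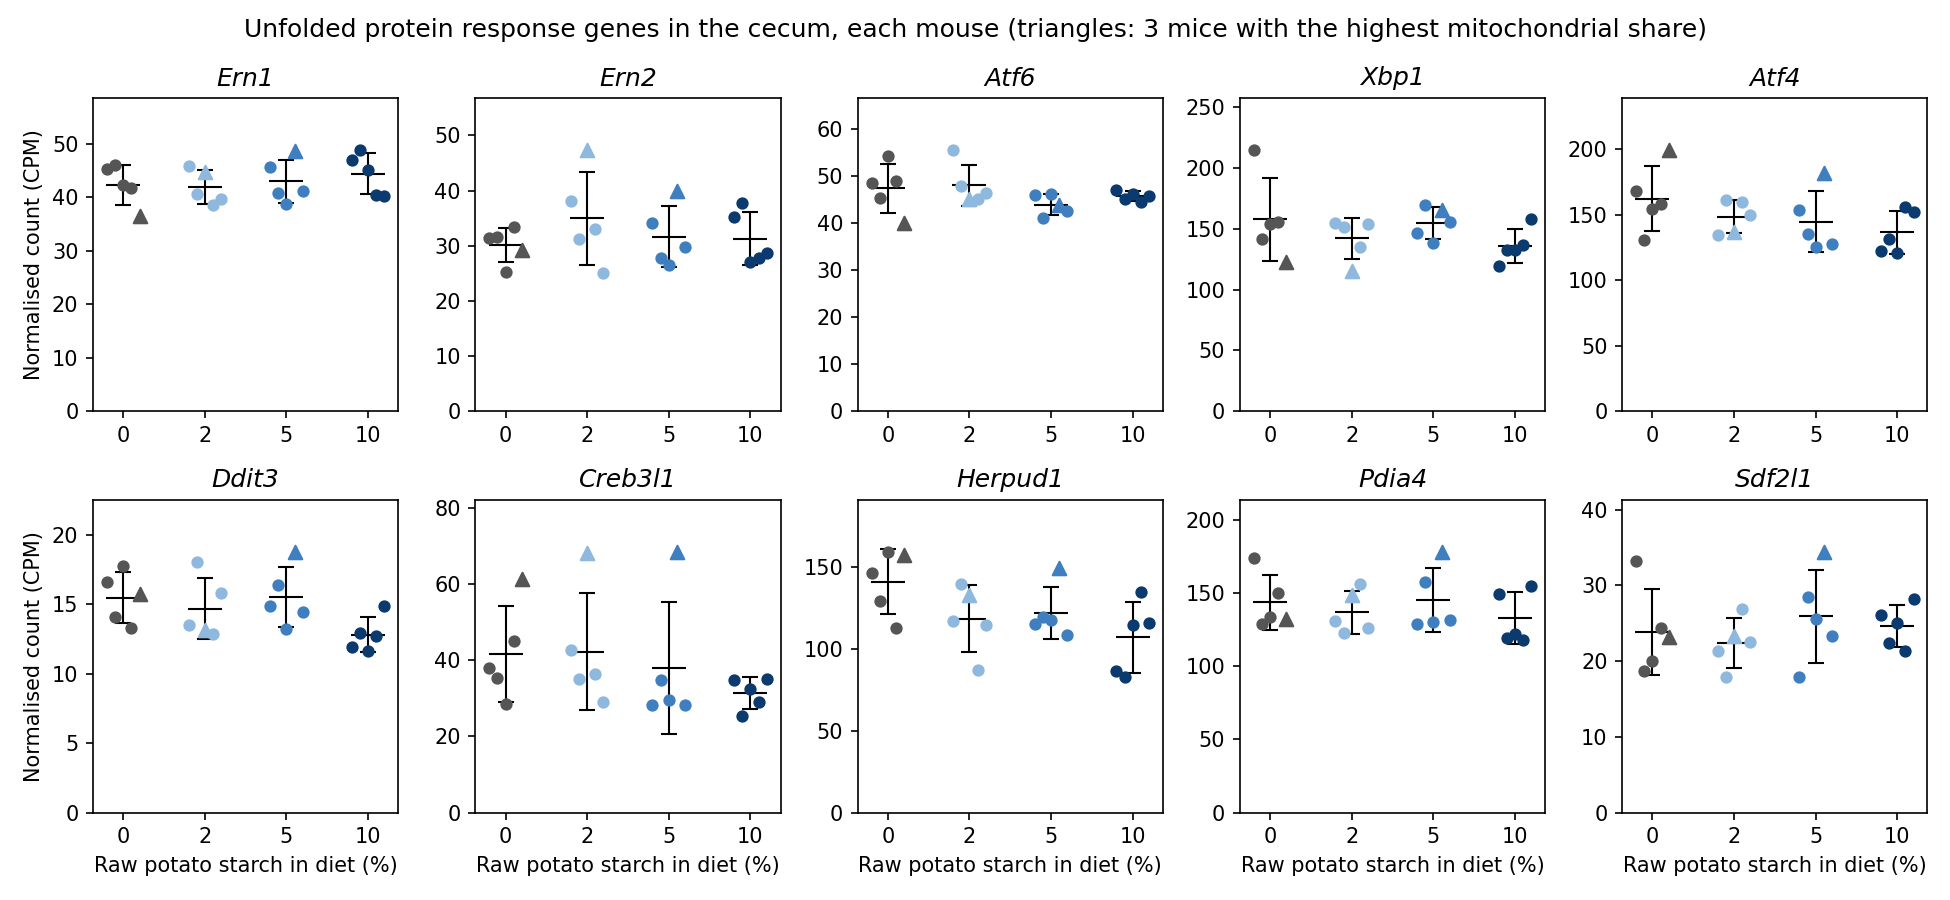
Level of each of the 10 genes in CPM (vertical axes, from 0) against the percentage of RPS in the diet. Each point is 1 mouse, bars are mean ± SD of 5 mice, and triangles are the 3 mice with the highest mitochondrial share. The groups overlap for each gene, and the triangles are the highest Creb3l1 values, at 61.2 to 68.5 CPM.

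For the members that encode sensors, the 2 IRE1 genes and Atf6, the estimates at 10% RPS were small, at 0.07 for Ern1, 0.05 for Ern2, and −0.05 for Atf6 on the log2 scale, and none passed the test. Over 30 refits under all alternatives they ran from 0.0006 to 0.15 for Ern1, −0.03 to 0.24 for Ern2, and −0.10 to 0.0003 for Atf6. The gene of PERK, Eif2ak3, is not a member and was at −0.17 ± 0.11 (SE; edgeR adjusted p = 0.409). Ern1 (ENSMUSG00000020715), which encodes IRE1 alpha, lies at chr11:106283818-106378686 on the minus strand. It measured 45.2, 46.0, 42.3, 41.8, and 36.5 CPM in mice fed 0% RPS and 47.0, 48.8, 45.2, 40.5, and 40.3 CPM in mice fed 10% RPS. Means ran from 41.9 ± 3.24 CPM at 2% RPS to 44.4 ± 3.84 at 10% RPS, a spread of means smaller than the SD within a diet. The fold change of Ern1 at 10% RPS was 1.05, with a 95% confidence interval of 0.929 to 1.18 (edgeR adjusted p = 0.696).

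Ern2 (ENSMUSG00000030866), at chr7:121769116-121785468 on the minus strand, encodes IRE1 beta, the form found in the epithelium of the gut and airway. It measured 31.3, 31.7, 25.2, 33.4, and 29.3 CPM at 0% RPS and 35.2, 37.7, 27.1, 27.8, and 28.6 CPM at 10% RPS. The widest spread of Ern2 was at 2% RPS, from 25.0 to 47.3 CPM, and the mouse at 47.3 CPM was one of the libraries that stood apart. The fold change at 10% RPS was 1.04 (0.838 to 1.28; edgeR adjusted p = 0.882).

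Atf6 (ENSMUSG00000026663) lies at chr1:170532026-170696208 on the minus strand. It measured 48.4, 45.3, 54.1, 48.9, and 40.02 CPM at 0% RPS, and 47.0, 45.1, 46.2, 44.4, and 45.7 CPM at 10% RPS. The mice fed 10% RPS were close together, with a coefficient of variation of 2.12%, against 10.9% at 0% RPS, and this difference in spread was not tested. The fold change of Atf6 was 0.965 (0.865 to 1.08; edgeR adjusted p = 0.753), the narrowest interval of the 10 members.

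The 4 transcription factors each had their lowest mean at 10% RPS, by amounts that did not pass the test. Xbp1 (ENSMUSG00000020484) lies at chr11:5470606-5483027 on the plus strand and encodes the factor that IRE1 activates. Its levels were 215, 141, 154, 155, and 123 CPM at 0% RPS, 154, 151, 116, 135, and 154 CPM at 2%, 146, 169.9, 138, 166, and 156 CPM at 5%, and 119, 133, 133, 137, and 158 CPM at 10%. The first mouse fed 0% RPS was the highest of all 20 mice and lay well above the other 4 on its diet. The fold change at 10% RPS was 0.862 (0.724 to 1.03; edgeR adjusted p = 0.331). Without that mouse the log2 fold change of Xbp1 at 10% RPS went from −0.21 to −0.08, and at 5% RPS from −0.02 to 0.11, so most of the lower estimate of Xbp1 rests on 1 library. Without the 3 libraries that stood apart it was −0.28 at 10% RPS (edgeR adjusted p = 0.103).

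Atf4 (ENSMUSG00000042406), at chr15:80139372-80141745 on the plus strand, encodes the factor that is translated when PERK is active, and its own mRNA level says little of that step. It measured 168, 131, 154, 158, and 199 CPM at 0% RPS, 135, 161, 136, 160.0, and 149.7 CPM at 2%, 154, 135, 125, 182, and 127 CPM at 5%, and 122, 132, 121, 156, and 152 CPM at 10%. The group means went from 162 ± 24.9 CPM to 148 ± 12.5, 145 ± 23.5, and 136 ± 16.6, lower at each step, as in 10.5% of all genes. At 10% RPS the fold change was 0.841 (0.712 to 0.994), with an adjusted p of 0.242 in edgeR. The highest 0% and 5% RPS mice for Atf4, at 199 and 182 CPM, were libraries that stood apart, and without the 3 such libraries the log2 fold change at 10% RPS was −0.16 (edgeR adjusted p = 0.292).

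Ddit3 (ENSMUSG00000025408), which encodes CHOP, a factor tied to cell death under lasting ER stress, lies at chr10:127124268-127132163 on the plus strand and had the lowest CPM of the members. Mice fed 0% RPS had 16.6, 14.1, 17.7, 13.3, and 15.7 CPM, and those fed 2% RPS had 13.5, 18.02, 13.1, 12.9, and 15.8 CPM. Mice fed 5% RPS had 14.9, 16.4, 13.2, 18.8, and 14.4 CPM, and those fed 10% RPS had 11.9, 12.9, 11.6, 12.7, and 14.9 CPM. Of the 5 mice fed 10% RPS, 4 were lower than each mouse fed 0% RPS, and the fifth, at 14.9 CPM, was within the 0% RPS range. The fold change of Ddit3 was 0.827 (0.698 to 0.981), with an adjusted p of 0.212 in edgeR. At 5% RPS it was close to 0 on the log2 scale, at 0.01 ± 0.12 (SE), and the doses were not tested against each other. Without the 3 libraries that stood apart the log2 fold change of Ddit3 at 10% RPS was −0.26 (edgeR adjusted p = 0.159), against −0.27 with them. Of the 979 exon bases of the main Ddit3 transcript, 841 (85.9%) are also in exons of other genes of the table, 778 of them in Mars1 (methionyl-tRNA synthetase) on the other strand. The strand setting of the counting is not given in the sources used here, so reads of these genes may have been shared. Mars1 was at 25.9 to 39.7 CPM, with a log2 fold change of 0.04 at 10% RPS (edgeR adjusted p = 0.859) and a Pearson's r with Ddit3 of −0.15 over the 20 mice. A second entry named Ddit3, 105 bases long within the first, had 0 counts in all 20 mice. The other 9 members share 0 exon bases of their main transcripts with other genes in the table.

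Creb3l1 (ENSMUSG00000027230), at chr2:91812673-91854917 on the minus strand, encodes OASIS, an ER membrane transcription factor related to ATF6 that is cut in the same way. Levels were 38.0, 35.2, 28.4, 45.1, and 61.2 CPM at 0% RPS, 42.7, 35.1, 68.1, 36.3, and 29.0 CPM at 2%, 28.2, 34.9, 29.4, 68.5, and 28.3 CPM at 5%, and 34.9, 25.2, 32.4, 29.1, and 35.2 CPM at 10%. The 3 mice above 60 CPM, 1 on each of the 3 lower doses, were the 3 libraries that stood apart, and the other 17 mice lay between 25.2 and 45.1 CPM, a log2 difference of 0.996. In 7.79% of all genes tested the same 3 libraries lay above the other 17, and in 10.7% below, and this was true of no other member. Pearson's r of Creb3l1 with the mitochondrial share was 0.71 over 20 mice and −0.41 within the other 17, given as a description since the points share their libraries. The fold change at 10% RPS was 0.753 (0.514 to 1.103; edgeR adjusted p = 0.405), the widest interval of the members. Without the 3 libraries the log2 fold change went from −0.41 to −0.22 (edgeR adjusted p = 0.314), and without 0% RPS mouse 5 alone it was −0.21. With 1 surrogate variable as a covariate it was −0.73 (edgeR adjusted p = 0.0817). With the same covariate in the trend fit, the slope of Creb3l1 over the dose was −0.04 per 1% RPS and passed, with an edgeR adjusted p of 0.0491, the only call of a member under any setting tried. That fit called 1153 of 15348 genes, against 170 without the covariate, so this call is no result about the members.

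**Figure D2:**
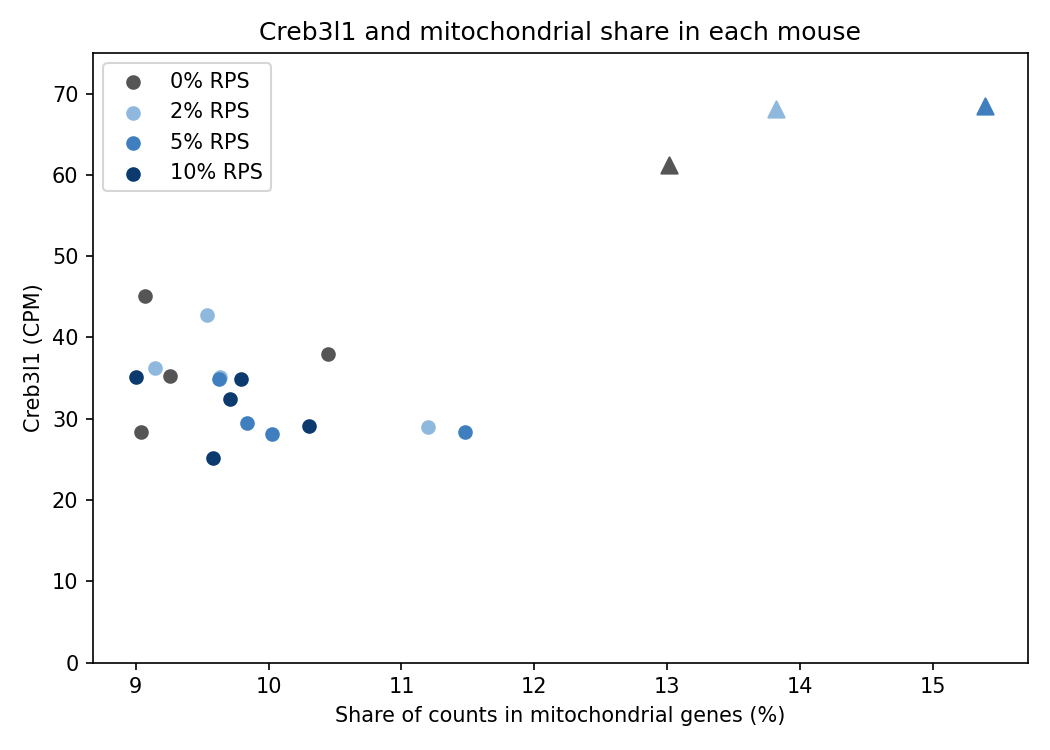
Creb3l1 in CPM (vertical axis, from 0) against the share of counts in mitochondrial genes in percent (horizontal axis), 1 point per mouse, coloured by diet. The 3 libraries that stood apart (triangles) are at 13.02 to 15.39% and 61.2 to 68.5 CPM, and the other 17 mice lie at 25.2 to 45.1 CPM.

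Of the 3 ER proteins, Herpud1 had the estimate farthest from 0 at 10% RPS, with intervals that overlapped those of Pdia4 and Sdf2l1. The genes were not tested against each other. Herpud1 (ENSMUSG00000031770), at chr8:95113022-95123141 on the plus strand, encodes an ER membrane protein that helps to assemble the degradation machinery for misfolded proteins. It measured 147, 129, 159.6, 113, and 158 CPM at 0% RPS, 117, 140.0, 133, 87.1, and 115 CPM at 2%, 115, 119.6, 118, 149.9, and 109 CPM at 5%, and 86.7, 83.0, 115, 135, and 116 CPM at 10%. Mice 1 and 2 fed 10% RPS were the lowest of all 20 mice, and the other 3 were within the range of those fed 0% RPS. The fold change at 10% RPS was 0.758 (0.618 to 0.931), a log2 change of −0.40 ± 0.14 (SE), with an adjusted p of 0.135 in edgeR. Herpud1 was also the member with the smallest p for a trend, with a slope of −0.03 per 1% RPS (edgeR adjusted p = 0.181). At 2% and 5% RPS the log2 changes of Herpud1 were −0.25 ± 0.14 and −0.21 ± 0.14 (SE), with adjusted p of 0.892 and 0.577 in edgeR. Without the 3 libraries that stood apart the log2 fold change of Herpud1 at 10% RPS was −0.35 (edgeR adjusted p = 0.142). Leaving out each of the 20 mice in turn kept the estimate between −0.49 and −0.32, and its unadjusted p was under 0.05 in 28 of 30 refits under all alternatives, with the lowest adjusted p at 0.0631. For Ddit3 it was under 0.05 in 21 of 30 refits and for Atf4 in 12 of 30.

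Pdia4 (ENSMUSG00000025823), at chr6:47770077-47790462 on the minus strand, encodes the disulfide isomerase ERp72. It measured 174, 129, 134, 149.9, and 132 CPM at 0% RPS and 149, 119, 122, 118, and 155 CPM at 10% RPS, and the fold change was 0.924 (0.785 to 1.09; edgeR adjusted p = 0.618). Sdf2l1 (ENSMUSG00000022769), at chr16:16948002-16950252 on the minus strand, encodes a partner of ER chaperones of the HSP40 class. It measured 33.2, 18.6, 19.96, 24.3, and 23.2 CPM at 0% RPS and 26.1, 22.4, 25.1, 21.3, and 28.2 CPM at 10% RPS, with a fold change of 1.03 (0.817 to 1.30; edgeR adjusted p = 0.916). For Pdia4, 3 of the 5 mice fed 10% RPS lay below each mouse fed 0% RPS and the other 2 were within their range. For Sdf2l1 all 5 mice fed 10% RPS were within the range of those fed 0% RPS. Without 0% RPS mouse 1, the highest of its diet for both, the log2 fold change at 10% RPS went from −0.11 to −0.04 for Pdia4 and from 0.04 to 0.19 for Sdf2l1, and over all fits that left out 1 mouse it ran from −0.17 to −0.04 and from −0.03 to 0.19.

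Over the 10 members, 7 estimates were below 0 at 10% RPS, with a median log2 fold change of −0.16, against 49.1% of all genes and a median of 0.00. At 5% RPS 5 of 10 were below 0 (median −0.01), against 50.5% of all genes, and at 2% RPS 7 of 10 were (median −0.07), against 49% of all genes. These 3 comparisons share the 0% RPS mice. The 95% confidence intervals at 10% RPS lay within 1.5-fold in either direction for 8 members, and those of Herpud1 and Creb3l1 reached beyond it on the lower side. At 5% RPS 9 of 10 intervals lay within 1.5-fold, and at 2% RPS 10 of 10 did.

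**Figure D3:**
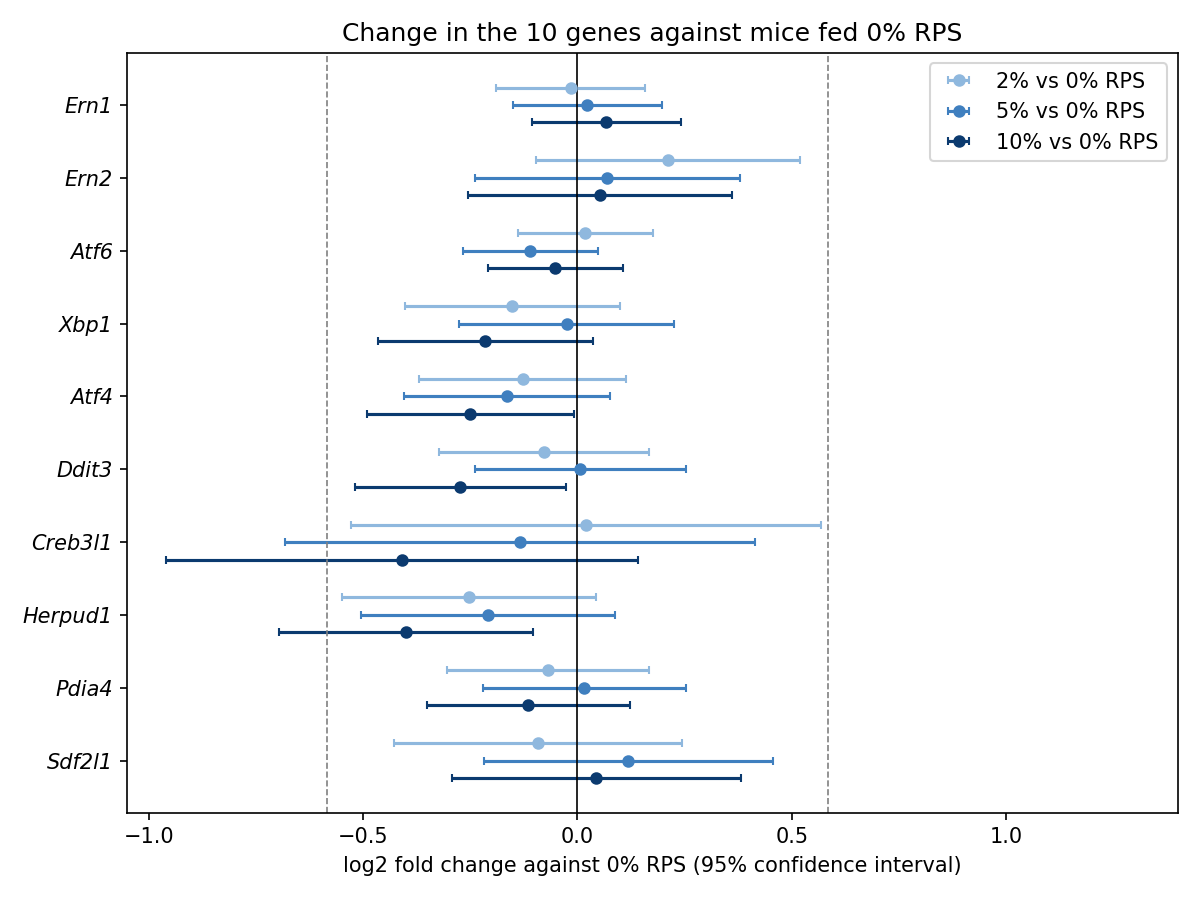
log2 fold change of each member at 2, 5, and 10% RPS against 0% RPS (points) with 95% confidence intervals (bars). Dashed lines mark a fold change of 1.5 in either direction. At 10% RPS the intervals of Herpud1, Ddit3, and Atf4 lie below 0 and that of Creb3l1 is the widest, from 0.514 to 1.103 as a fold change.

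The rest of the pathway was lower in mean at 10% RPS for most genes, by small amounts. Of 118 other genes of the pathway, all of which were tested, 100 had an estimate below 0 at 10% RPS (84.7%, against 49.1% of all genes), with a median log2 fold change of −0.14. An unadjusted p under 0.05 was found for 28 lower and 2 higher genes (23.7% and 1.69%, against 9.75% and 9.74% of all genes). In both directions together these 30 genes became 12 with the goblet cell marker mean as a covariate and 19 without 10% RPS mouse 3, the lowest of the fits that left out 1 mouse, which reached 35. Calls over all genes fell in these 2 fits from 160 to 34 and 14, and the share of all genes at that unadjusted p is not given for them. After adjustment 2 genes were called, both lower (1.69% of the 118, against 0.495% of all genes): Creb3l3 and Vldlr. At 5% RPS 99 of 118 estimates were below 0 and at 2% RPS 94 were, and 0 genes were called at either dose, where 19 and 6 genes had an unadjusted p under 0.05 (16.1% and 5.08%, against 13.3% and 5.77% of all genes). The count of 6 at 2% RPS ran from 2 to 19 when 1 mouse was left out, and was 19 without 2% RPS mouse 4. DESeq2 called 2 at 5% RPS, where it called 241 of 19887 genes in all. These genes share mice and are not independent of each other, so the counts are a description.

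Creb3l3 encodes CREBH, a relative of Creb3l1 that is best known for lipid metabolism in liver and intestine. It measured 128, 145, 216, 138, and 189 CPM at 0% RPS, 87.5, 135, 87.5, 154, and 42.4 CPM at 2%, 89.7, 65.4, 41.3, 42.3, and 30.7 CPM at 5%, and 28.5, 32.9, 29.7, 95.4, and 52.3 CPM at 10%. Its mice fed 5 and 10% RPS did not overlap with those fed 0% RPS. Vldlr, a lipoprotein receptor induced by ATF4, measured 28.0, 31.0, 37.3, 26.0, and 29.0 CPM at 0% RPS and 18.6, 18.6, 16.2, 24.4, and 20.2 CPM at 10% RPS, again without overlap, with a log2 fold change of −0.63 ± 0.14 (SE; edgeR adjusted p = 0.0316). Both genes are known for lipid handling beside the UPR. Leaving out any of 7 single mice ended both calls at 10% RPS (0% RPS mouse 3, 4, or 5, or 10% RPS mouse 1, 2, 3, or 5), with adjusted p in edgeR up to 0.101 for Creb3l3 and 0.108 for Vldlr and log2 fold changes of −2.19 to −1.64 and −0.71 to −0.54 over all 20 such fits. In those 7 fits the calls over all genes fell as well, from 160 to between 14 and 80.

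The counts by role stand against 9.75% of all genes lower and 9.74% higher at an unadjusted p under 0.05, and no list is set apart from the others by a test. The 13 other sensors and regulators had 9 estimates below 0 at 10% RPS (median −0.09), with unadjusted p under 0.05 for 4 lower genes and 1 higher. Beside Creb3l3, the smallest p were those of Eif2s1, the subunit of the initiation factor that PERK phosphorylates, at −0.20 ± 0.08 on the log2 scale (SE; edgeR adjusted p = 0.184), and of Creb3, at −0.23 ± 0.09 (edgeR adjusted p = 0.192). Among 25 chaperones and folding enzymes 21 were below 0 (median −0.14), with an unadjusted p under 0.05 for 4 lower genes and 1 higher. The higher one was Ero1b, an oxidase that drives disulfide formation, at 0.58 ± 0.19 (edgeR adjusted p = 0.109). Dnajb9, a co-chaperone that acts back on IRE1, was at −0.41 ± 0.13 (edgeR adjusted p = 0.0964), from 70.4 ± 10.4 CPM at 0% RPS to 53.2 ± 7.46 CPM at 10%, and Sdf2, the close relative of Sdf2l1, was at −0.21 ± 0.09 (edgeR adjusted p = 0.201).

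The 20 other genes of ER-associated degradation, the process in which Herpud1 works, had 17 estimates below 0 (median −0.09) and 3 lower genes at an unadjusted p under 0.05: Nploc4 at −0.23 ± 0.07 (edgeR adjusted p = 0.0684), Selenos at −0.25 ± 0.10 (adjusted p = 0.174), and Ube2g2 at −0.36 ± 0.15 (adjusted p = 0.211). Of 29 targets of PERK, ATF4, and CHOP, 23 were below 0 (median −0.16) and 8 were lower at an unadjusted p under 0.05. Beside Vldlr these included Tnfrsf10b, a death receptor induced by CHOP, at −0.42 ± 0.12 (edgeR adjusted p = 0.0718) and Wars1, the tryptophanyl-tRNA synthetase, at −0.42 ± 0.13 (adjusted p = 0.0803). The 31 genes of ER entry, glycosylation, and export had 30 estimates below 0 (median −0.14) and 9 lower genes at an unadjusted p under 0.05. Among them were Srpra, the receptor of the signal recognition particle, at −0.20 ± 0.06 (edgeR adjusted p = 0.0686), Dad1, a subunit of the oligosaccharyltransferase, at −0.42 ± 0.12 (adjusted p = 0.0706), and Surf4, a cargo receptor, at −0.23 ± 0.07 (adjusted p = 0.0723).

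**Figure D4:**
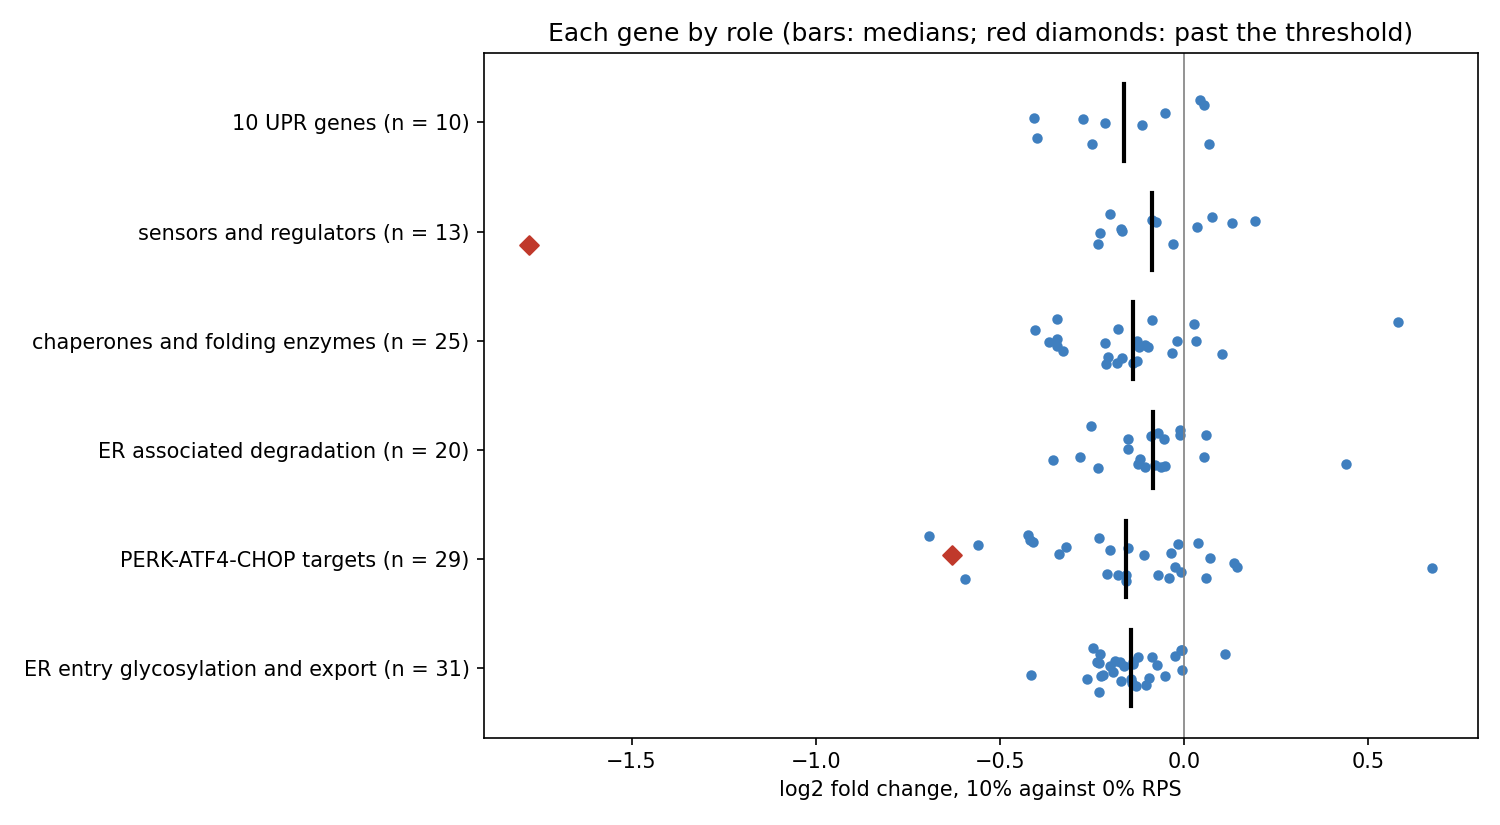
log2 fold change at 10% against 0% RPS (horizontal axis) of the 10 UPR genes and of 118 other pathway genes in 5 role lists. Points are genes, vertical bars are list medians, and red diamonds are the 2 genes past the threshold, Creb3l3 at −1.78 and Vldlr at −0.63. The 6 medians lie between −0.16 and −0.09.

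Whole cecum tissue holds several cell types, and in such samples fewer cells of a type and less RNA per cell cannot be told apart. Markers of cell types moved with these results. Of 12 goblet cell markers, 11 had lower estimates at 10% RPS, 7 with p under 0.05 before adjustment, and their summed level was 9467 to 12774 CPM at 0% RPS and 7519 to 9170 CPM at 10%, without overlap. The goblet cell gene Zg16 was called, at −0.84 (edgeR adjusted p = 0.0251). The 7 general epithelial markers were all lower and 0 were called (9187 to 12937 CPM at 0% RPS and 8360 to 11025 CPM at 10%). The 7 smooth muscle markers were all higher, with Actg2 called (2749 to 6384 CPM and 4452 to 7315 CPM). All 8 B cell markers were higher with 0 called (6.43 to 252.8 CPM and 17.7 to 361 CPM), and 6 of 8 tested plasma cell markers were higher with 0 called (642 to 1725 CPM and 1153 to 1384 CPM), while Mzb1, also on that list, was too low to be tested. Of 8 absorptive colonocyte markers 3 were higher, Slc26a3 being called, and 5 lower (33505 to 38465 CPM and 23246 to 37523 CPM). No tested marker was at 0 in any mouse, though the B cell markers Cr2 and Pax5 were as low as 0.104 CPM. The part of these cell types in the levels of the UPR genes was not tested, but fits with marker levels as a covariate give values beside it. With the goblet cell marker mean as a covariate, the log2 fold change at 10% RPS went from −0.21 to −0.06 for Xbp1 and from −0.11 to 0.06 for Pdia4, and 0 members had an unadjusted p under 0.05. Herpud1 was at −0.29, Ddit3 at −0.30, Atf4 at −0.25, Creb3l1 at −0.17, and Sdf2l1 at 0.26 under it. With the plasma cell marker mean as a covariate Xbp1 was at −0.29, Pdia4 at −0.21, Herpud1 at −0.35, and Ddit3 at −0.21, Atf4 went from −0.25 to −0.12, Creb3l1 was at −0.38, and 1 member had an unadjusted p under 0.05. With the epithelial marker mean these 6 were at −0.25, −0.06, −0.41, −0.28, −0.14, and −0.13, and 2 members did. Of the 118 other genes, 75 were below 0 at 10% RPS under the goblet covariate (median −0.06), 100 under the plasma covariate (median −0.14), and 95 under the epithelial covariate (median −0.11), against 100 without a covariate. At 5% RPS 96 were below 0 under the goblet covariate, against 99 without. The covariate itself hardly differed there, with a mean log2 level of 8.40 at 0% RPS and 8.34 at 5% RPS. Of the 12 goblet cell markers 10 were lower at 5% RPS, but the highest was at 2.55 on the log2 scale. The count at 5% RPS therefore says little of goblet cell content. Creb3l3 and Vldlr were not called under the 3 covariates, but their log2 fold changes stayed at −1.58, −1.49, and −1.65 for Creb3l3 and −0.59, −0.61, and −0.59 for Vldlr (goblet, plasma, and epithelial in turn), with edgeR adjusted p from 0.0717 to 0.195. Calls over all genes at 10% RPS fell in the same fits from 160 to 34, 3, and 16, so the loss was not particular to these genes. The share of all genes with an unadjusted p under 0.05 is not given for these fits, so the counts of members under them are only a description.

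Over the 20 mice, the goblet cell marker mean had a Pearson's r of 0.48 with each of Herpud1 (permutation p = 0.0321, adjusted p = 0.461), Pdia4 (permutation p = 0.0347, adjusted p = 0.467), and Xbp1 (permutation p = 0.0341, adjusted p = 0.466). Adjustment was over all genes, of which 0% passed and 9.82% had a permutation p under 0.05. Spearman's rho was 0.42 for Herpud1 (permutation p = 0.0639), 0.45 for Pdia4 (permutation p = 0.0505), and 0.37 for Xbp1 (permutation p = 0.109). The highest rho was that of Creb3l1, at 0.58 (permutation p = 0.00757, adjusted p = 0.478), where r was 0.40 (permutation p = 0.0802). Without the 2 mice farthest from the median of the markers, r was 0.25 for Herpud1, 0.24 for Pdia4, 0.20 for Xbp1, and 0.35 for Creb3l1. Leaving out the most extreme mice also narrows the range of the markers, so the smaller r does not show that the relations rested on those mice. Ern2 went the other way, from 0.23 to 0.46, and was then the highest member. For plasma cell markers the member farthest from 0 was Atf4, with r = −0.54 (permutation p = 0.0139, adjusted p = 0.154) and rho = −0.47 (permutation p = 0.0367), and r = −0.31 without the 2 farthest mice. Atf6 went from −0.23 to −0.55 without them. Over all genes 3.06% passed there, and 17.5% had a permutation p under 0.05. For deviations from diet means these r were smaller, at 0.23 for Herpud1 (permutation p = 0.332), 0.41 for Pdia4 (permutation p = 0.0728), 0.32 for Xbp1 (permutation p = 0.172), and 0.28 for Creb3l1 (permutation p = 0.225) with goblet cell markers, and −0.41 for Atf4 (permutation p = 0.0718) with plasma cell markers.

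The members did not move as 1 group over mice. Over 45 pairs the mean Pearson's r of log2 CPM was 0.18, against 0.002 over all pairs of genes tested, 32 pairs were above 0, and 8 were above 0.5. In the mean over all pairs, r of opposite sign cancel, and the shares of all pairs above 0 and above 0.5 were not computed. Correlations here are descriptions over 20 mice that share their libraries and diets. The closest pair was Pdia4 and Sdf2l1, with r = 0.81, rho = 0.74, and r = 0.86 for deviations from diet means. 0% RPS mouse 1 and 5% RPS mouse 4 were the highest for both genes. Without the 2 mice farthest from the median r was 0.66, and without the 3 libraries that stood apart it was 0.76. A second set was Ddit3 with Herpud1 (r = 0.66), Atf4 (0.62), and Xbp1 (0.61), and Atf4 with Herpud1 (0.56). Without the 3 libraries that stood apart these were 0.66, 0.55, 0.69, and 0.42 in turn, and for deviations from diet means 0.57, 0.58, 0.51, and 0.43. The sensors Ern1 and Ern2 had r = 0.61. Creb3l1 had r = 0.58 with Ern2 and 0.54 with Pdia4, and without the 3 libraries that stood apart these were 0.34 and 0.57. Herpud1 and Sdf2l1, both ER proteins of this response, had r = −0.04.

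**Figure D5:**
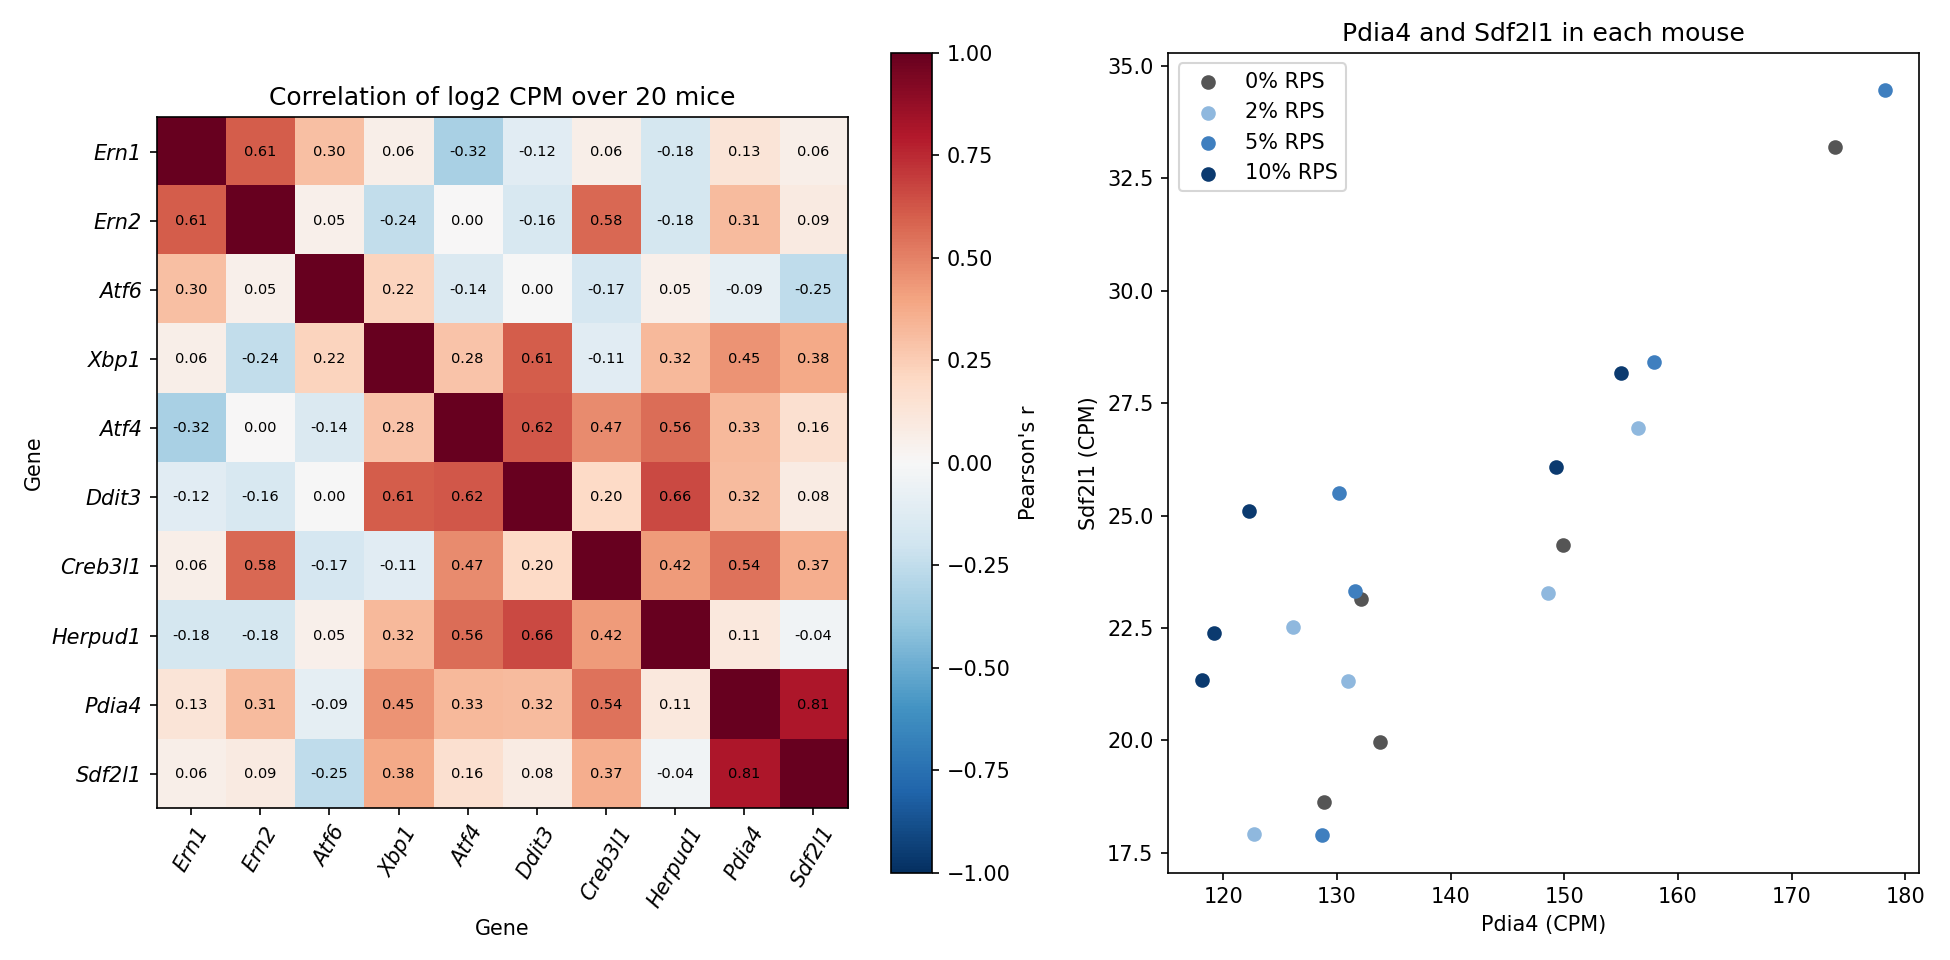
Pearson's r of log2 CPM between members over 20 mice (left, colour scale from −1 to 1, value in each cell), and Sdf2l1 against Pdia4 in CPM (right, 1 point per mouse, coloured by diet). Pdia4 and Sdf2l1 have the highest r, 0.81, and Ddit3 is above 0.6 with Xbp1, Atf4, and Herpud1.

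The genes most like each member over the 20 mice were taken by Pearson's r of log2 CPM over all genes tested. For Creb3l1 they were Aimp2 (r = 0.93), Lrp5 (0.92), and Hnrnpf (0.92), for Pdia4 Hsp90ab1 (0.91), Stip1 (0.89), and Creld2 (0.89), and for Atf4 Ppp2r2a (0.89), Ube2f (0.89), and Shb (0.88). For Ern2 they included Kansl1 (0.87) and Plk1 (0.82), for Xbp1 they were Chordc1 (0.85), Rrn3 (0.82), and Usp31 (0.81), and for Herpud1 Gata2 (0.85), Abhd14b (0.84), and Igbp1 (0.83). For Ern1 they were Mroh6 (0.82), Tstd2 (0.78), and Ddx46 (0.78), and for Ddit3 Foxk2 (0.81), Prkrip1 (0.80), and Dnajb9 (0.79). For Sdf2l1 they were Pdia4 (0.81), Il1r2 (0.80), and Serpinh1 (0.79), and for Atf6 Fam13a (0.79), Yeats2 (0.77), and Gabpa (0.76). The ranking was over all genes tested, so high values of r were chosen by the ranking itself. Creb3l1 had r = 0.82 with the second principal component, on which the 3 libraries stood apart, and its r with these genes was not computed without those libraries.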

How the data were processed

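The authors deposited raw counts per gene and mouse, which come from reads of 1 end of strand-marked mRNA fragments, counted in the CLC Genomics Workbench on GRCm39, after removing low-quality nucleotides and ambiguous reads. The annotation release, strand setting, and treatment of reads with several matches are not given in the sources used here. Gene names and positions came from GENCODE on GRCm39. The 10 members, the other pathway lists, and the marker lists were chosen with earlier results of these data known. Each sample is a separate mouse and its diet came from its label; mice are numbered 1 to 5 within a diet.

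The counts were tested in R 4.3.3 with edgeR 4.0.16 (TMM, filterByExpr with a minimum count of 10, robust quasi-likelihood fit to all 20 mice); 1354 genes had 0 counts throughout. Intervals are at 95% and 3 counts equal at most 0.190 CPM. log2 CPM used a prior count of 2, and correlation tests used 100000 permutations. Named genes were all members, the genes of each role list that were called at 10% RPS or for the trend with the 3 of smallest p at 10% RPS, and the 3 genes most like each member, of which 1 is not reported here; markers are named where they were called. Members were searched for near-identical copies of at least 150 bases. Alternatives used DESeq2 1.42.0 and sva 3.50.0, another normalization, no filter, no robust step, covariates, and leaving out mice. The test was checked on simulated counts with known changes. Motif windows and sequences were read from GRCm39 with Python 3.11.15.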

Additional observations from a re-analysis of the deposited data

Results flagged for a closer look

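In 40 groups of 5 mice (10 members on 4 diets), the highest or lowest mouse was compared with the range of its group by Dixon's test at the 95% level, which chance passes in about 1 of 20 groups. Of these, 3 passed. Atf6 was at 55.4 CPM in 2% RPS mouse 1, above the other 4 mice on that diet at 45.1 to 47.9 CPM. Herpud1 was at 150 CPM in 5% RPS mouse 4, where the other 4 mice were at 109 to 119.6 CPM. Creb3l1 was at 68.5 CPM in the same mouse, against 28.2 to 34.9 CPM in the others. That mouse is one of the 3 libraries that stood apart in mitochondrial share. Without it the log2 fold change of Creb3l1 at 5% RPS was −0.47 in place of −0.13 (edgeR adjusted p = 0.346). Over all fits that left out 1 mouse this estimate ran from −0.47 to 0.06, so its sign also depended on single mice.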

How the results depend on the processing

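No paired analysis was possible because no mouse number occurs on more than 1 diet. The count of members called was 0 under each alternative in each comparison it was run for (only the trend for the rank of the dose, and only the 3 comparisons with 0% RPS for the 2 diets alone), except for the trend with 1 surrogate variable, where it was 1 (Creb3l1, slope −0.043). With each mouse left out in turn it stayed from 0 to 0. Of 1200 refits of the members, 67 changed sign, all of them uncalled, and 21 moved by over 1 SE.

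For the 118 other pathway genes at 10% RPS, the 2 calls became 1 with a surrogate variable or with only the 2 diets compared and 0 with the goblet, plasma, or epithelial marker mean as covariate (Creb3l3 at −1.58, −1.49, and −1.65, and Vldlr at −0.59, −0.61, and −0.59), and 0 to 3 with each mouse left out. At 5% RPS, where 0 were called, DESeq2 called 2, the 2 diets alone gave 1, and leaving out mice gave 0 to 1. For the trend, with 2 calls, DESeq2 called 9, a surrogate variable gave 12, the rank of the dose 6, leaving out the 3 libraries that stood apart 11, and each of the 3 marker covariates 0, and leaving out single mice gave 0 to 6. Calls over all genes moved too, from 170 to 1153 with a surrogate variable, 539 with the rank of the dose, and 888 without the 3 libraries, and they rose with DESeq2 as well. Under the goblet, plasma, and epithelial covariates they fell, to 4, 3, and 2 for the trend and from 160 to 34, 3, and 16 at 10% RPS, so these counts say nothing of this pathway in particular. The trend count fell to 0 or 1 without 0% RPS mouse 1, 3, 4, or 5, 2% RPS mouse 1 or 4, 5% RPS mouse 2, or 10% RPS mouse 1, 2, 3, or 5, and was 6 without 2% RPS mouse 3. The 1 call at 5% RPS came without 2% RPS mouse 5, 5% RPS mouse 1, or 10% RPS mouse 4. With DESeq2 size factors 100 of the 118 estimates were below 0 at 10% RPS, as with TMM. The cause of these moves was not tested. The epithelial covariate and the fit without the 3 libraries were chosen after seeing the data. In the comparisons with 0% RPS the threshold itself leaves out changes under 1.5-fold; the trend and the test of any difference had no fold limit.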
